A study of Mus musculus with 12 samples.

Results

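The difference in gene expression between type 2 conventional dendritic cells (cDC2) of lymphoid and of myeloid origin was measured in 2 experimental systems, and the genes described here are those whose origin difference was not the same in both. All 12 samples of the series entered the measurement. In the first system, called the reporter system here, cDC2 came from Il7r-Cre; Rosa26-lsl-tdTomato mice, in which Cre driven by Il7r marks a cell and all of its progeny with tdTomato. The tdTomato+ cells were L-cDC2 and the tdTomato- cells M-cDC2. In the second, the transfer system, common lymphoid progenitors (CLP) or common dendritic cell progenitors (CDP) of wild-type CD45.2+ donors were injected into B6.SJL (CD45.1+) hosts by way of the bone marrow, and their progeny were CLP-cDC2 and CDP-cDC2. Every group had 3 libraries, was taken from the spleen, and had received 5 mg/kg of lipopolysaccharide (LPS) into the peritoneum 4 days earlier, so no untreated cells are among them. For age and strain the labels name wild-type C57BL/6J mice of 7 to 8 weeks. The study asked how far cDC2 made from transferred CLP resemble L-cDC2. Sort gates, conditioning of the hosts and whether tdTomato+ and tdTomato- cells shared mice are not given in the labels. Nor is it stated that replicates were separate animals, so p-values reflect how far these libraries varied, and that variation may be technical only.

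Conventional dendritic cells take up antigen and present it to T cells. The cDC1 branch depends on the transcription factors Irf8 and Batf3, carries Xcr1 and Clec9a and is known for presenting material of dead cells to CD8 T cells, while the cDC2 branch carries Sirpa and Itgam, depends more on Irf4 and is known for priming CD4 T cells. CDP give rise to both branches, whereas CLP chiefly give rise to B cells, T cells and other lymphocytes and can also yield dendritic cells.

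For each gene the reporter difference is L-cDC2 minus M-cDC2, the transfer difference is CLP-cDC2 minus CDP-cDC2, and the difference between systems is the transfer difference minus the reporter difference. All are on the scale of log2(FPKM + 1), where FPKM is the number of fragments per kilobase of gene, scaled to the assigned fragments of the library. This scale understates changes of low genes. A gene was called where limma's test of the difference between systems, fitted on all 12 libraries and 14538 genes, had a Benjamini-Hochberg adjusted p under 0.05. Errors after ± are standard errors from that fit. Libraries are written with their group and number: L1 to L3, M1 to M3, CLP1 to CLP3 and CDP1 to CDP3. Depth was inferred from the FPKM, with the commonest low value of FPKM times gene length taken as 1 read. By that measure the libraries held from 26543345 to 73732243 assigned reads. CDP3 stood apart from the others of its group, with a root mean square deviation of 0.347 on the log2 scale against 0.177 to 0.274 in the other 11 libraries, and it lay at -50.6 on the second principal component. M3 lay at -40.5 on the third. Flt3, the growth factor receptor of dendritic cells, averaged 92.6 FPKM in L-cDC2, 95.4 in M-cDC2, 102 in CLP-cDC2 and 101 in CDP-cDC2, and no library was at 0 for Flt3 or Sirpa. H2-Ea, an MHC class II gene that the C57BL/6 haplotype does not transcribe, set the systems apart. It stood at 402, 409.9 and 445 FPKM in L-cDC2, 494, 509 and 459.6 in M-cDC2, 0.568, 0.804 and 0.909 in CLP-cDC2 and 1.48, 0.628 and 0.662 in CDP-cDC2. Its difference between systems was 0.11 ± 0.22 (limma adjusted p = 0.79), and its part in values set across the systems was not tested.

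Of 14538 genes of all types tested, 5.99% were called, and of 10113 protein-coding genes 692 were called. The transfer difference lay above the reporter difference for 292 genes (2.89%) and below it for 400 (3.96%). Only 12 of them had both origin differences called, in opposite directions, and another 68 had opposite origin differences of at least 0.5 each without both being called, which makes 80 genes that changed sign. For 474 genes the origin difference reached 0.5 in the transfer system alone, and 470 of these were called there. For 64 it reached 0.5 in the reporter system alone, and 55 of these were called there. A further 19 had the same sign in both systems with unequal size, and 55 stayed under 0.5 in both. Among all tested protein-coding genes, L-cDC2 were above M-cDC2 for 103 (1.02%) and below for 59 (0.583%), and CLP-cDC2 were above CDP-cDC2 for 857 (8.47%) and below for 724 (7.16%). Both origin comparisons called 66 genes, and 12 of these moved in opposite directions. Across systems, CLP-cDC2 were above L-cDC2 for 5.07% of genes and below for 6.39%, and CDP-cDC2 were above M-cDC2 for 2.05% and below for 0.781%. The group farthest from the other groups was CLP-cDC2 for most of the 692 genes, 210 times as the highest and 212 times as the lowest. CDP-cDC2 was farthest 108 times as the highest and 58 times as the lowest, L-cDC2 71 and 11 times, and M-cDC2 13 and 9 times. Groups without overlap between their libraries are common in these data, at 22.2% of protein-coding genes in the reporter and 34.4% in the transfer system.

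**Figure D1:**
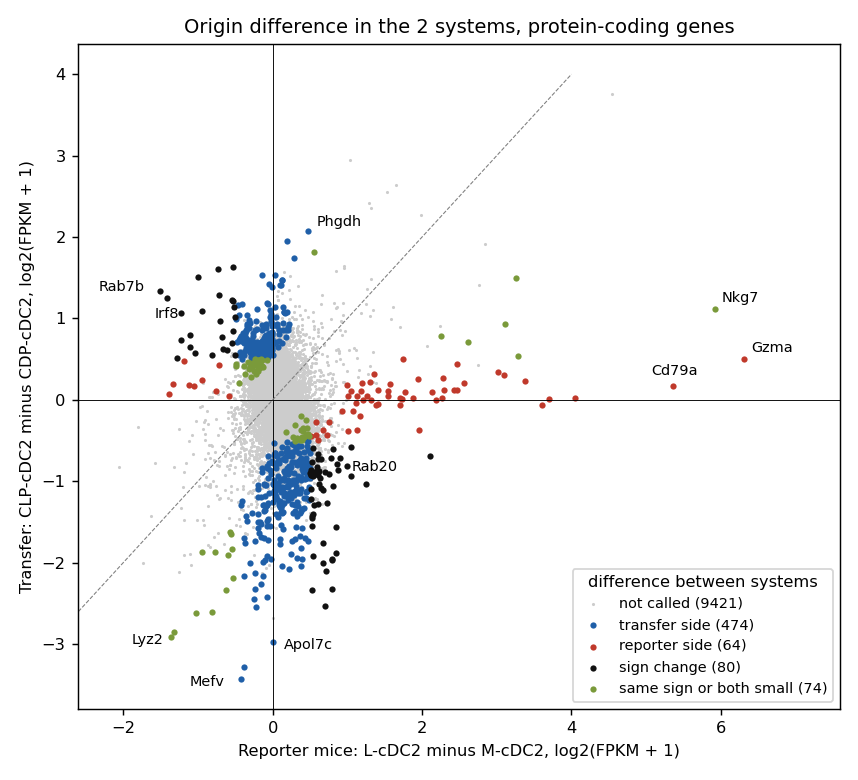
Reporter difference (x axis) against transfer difference (y axis) of 10113 protein-coding genes, both on the scale of log2(FPKM + 1), with 1 point a gene and colours for the class of the 692 called genes; the dashed line marks equal differences. Most called genes lie along the vertical axis (474 on the transfer side) or stretched along the horizontal axis (64 on the reporter side), and the 80 that changed sign lie in the upper left and lower right corners.

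These counts moved with the libraries and the filter. Leaving out L2 left 73 genes above and 154 below, leaving out CDP1 gave 454 and 550, and leaving out each of the other 10 libraries gave 91 to 219 above and 170 to 388 below. With no filter on low values the counts were 69 and 122. Median-of-ratios scaling turned the split of higher against lower calls from 42.2% to 54.6% higher.

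Genes of the cDC1 branch were prominent among those that changed sign. The gene lists used here and below were written with earlier results of these data known, and no set test was run. Of the cDC1 list, 9 of 16 tested members had a higher transfer than reporter difference (against 2.89% of all genes) and 0 had a lower one. The 9 were Irf8, Xcr1, Clec9a, Rab7b, Gcsam, Naaa, Ppt1, Cd8a and Cd36. In each of the 9 the mean of L-cDC2 was below that of M-cDC2 and the mean of CLP-cDC2 above that of CDP-cDC2. The median over the tested members was -0.70 in the reporter system, 0.53 in the transfer system and 1.42 for the difference between systems, against 0.07, 0.01 and -0.06 over all protein-coding genes. In the reporter system alone 7 members were lower in L-cDC2 (0.583% of all genes) and 0 higher, and in the transfer system 8 were higher in CLP-cDC2 (8.47% of all genes) and 1 lower.

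Rab7b, a GTPase of late endosomes, had the largest difference between systems among genes with both origin differences called. It stood at 6.100, 5.02 and 8.52 FPKM in L-cDC2, 19.8, 19.8 and 20.6 in M-cDC2, 25.9, 19.00 and 17.7 in CLP-cDC2 and 10.2, 8.44 and 4.86 in CDP-cDC2. Levels in L-cDC2 and CDP-cDC2 were low and those in M-cDC2 and CLP-cDC2 high, without overlap within either system. The reporter difference was -1.51 ± 0.24, the transfer difference 1.34 ± 0.24 and the difference between systems 2.85 ± 0.33 (limma adjusted p = 0.00066).

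Irf8, the transcription factor that the cDC1 branch requires, was present at 28.9, 31.3 and 29.2 FPKM in L-cDC2, 59.2, 59.7 and 56.1 in M-cDC2, 79.9, 48.6 and 42.3 in CLP-cDC2 and 32.1, 23.03 and 21.4 in CDP-cDC2. The lowest CLP-cDC2 library was above the highest CDP-cDC2 library, and every M-cDC2 library was above every L-cDC2 library. Its difference between systems was 2.04 ± 0.29, from -0.95 in the reporter to 1.10 in the transfer system (limma adjusted p = 0.0028). Irf8 in CLP-cDC2 was 0.86 above L-cDC2 (limma adjusted p = 0.0196), and in CDP-cDC2 it was -1.18 relative to M-cDC2 (limma adjusted p = 0.012).

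Xcr1, the chemokine receptor by which cDC1 meet CD8 T cells, stood at 2.97, 2.11 and 2.12 FPKM in L-cDC2, 6.12, 7.25 and 5.51 in M-cDC2, 4.04, 3.67 and 3.74 in CLP-cDC2 and 1.92, 2.88 and 1.57 in CDP-cDC2. Clec9a, the receptor for actin filaments exposed by dead cells, stood at 0.787, 1.16 and 0.951 FPKM in L-cDC2, 4.13, 2.94 and 2.76 in M-cDC2, 4.85, 3.69 and 2.55 in CLP-cDC2 and 1.57, 2.39 and 1.124 in CDP-cDC2. Both were low in absolute level, and both were lowest in L-cDC2 or CDP-cDC2. The differences between systems were 1.75 ± 0.25 for Xcr1 (-1.10 and 0.65 in the reporter and transfer systems, limma adjusted p = 0.0031) and 1.91 ± 0.32 for Clec9a (-1.11 and 0.80, limma adjusted p = 0.00599).

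Gcsam, a signalling adaptor known from germinal centre B cells, stood at 4.98, 2.87 and 3.65 FPKM in L-cDC2, 8.82, 10.1 and 6.85 in M-cDC2, 7.12, 6.67 and 7.13 in CLP-cDC2 and 2.501, 2.04 and 1.07 in CDP-cDC2, a difference between systems of 2.50 ± 0.31 (limma adjusted p = 0.00088). Ppt1, a lysosomal enzyme that removes fatty acids from proteins, stood at 79.4, 67.3 and 75.4 FPKM in L-cDC2, 149, 138 and 108 in M-cDC2, 101, 106 and 125 in CLP-cDC2 and 70.97, 87.9 and 67.00 in CDP-cDC2, a difference of 1.36 ± 0.21 (limma adjusted p = 0.0041). Each of them had no overlap between groups in either system. Naaa, a lysosomal amidase of lipid amides, was called in the reporter difference alone (-1.28, against 0.51 in the transfer system), at 36.6, 23.4 and 30.5 FPKM in L-cDC2, 72.2, 70.6 and 78.7 in M-cDC2, 53.4, 46.5 and 51.5 in CLP-cDC2 and 44.04, 39.2 and 25.02 in CDP-cDC2. Cd36, a scavenger receptor singled out after its values were seen, had origin differences of -0.49 and 0.99 and a difference between systems of 1.48 ± 0.20 (limma adjusted p = 0.00205).

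Cd8a, which marks the lymphoid-tissue cDC1 subset among dendritic cells, stood at 6.29, 6.38 and 8.17 FPKM in L-cDC2, 12.2, 9.48 and 9.61 in M-cDC2, 6.57, 10.7 and 11.9 in CLP-cDC2 and 2.99, 6.43 and 2.07 in CDP-cDC2. Its CLP-cDC2 and CDP-cDC2 libraries did not overlap, and the difference between systems was 1.74 ± 0.41 (limma adjusted p = 0.029). The call was lost for Cd8a without L1, L2, M1, M2, M3, CLP2 or CLP3 (limma adjusted p up to 0.074). Batf3, the other transcription factor of the branch, averaged 68.1 FPKM in L-cDC2, 88.9 in M-cDC2, 84.4 in CLP-cDC2 and 77.2 in CDP-cDC2 and was not called. Summed over the 18 genes of the list, the level was 263 to 294 FPKM in L-cDC2, 449 to 481 in M-cDC2, 410 to 451 in CLP-cDC2 and 277 to 328 in CDP-cDC2. In bulk samples fewer cells of a type and less RNA per cell cannot be told apart, and the part of cDC1 in the sorted cells was not tested. The count was 9 without CDP3, 8 without M3 and CDP3 together, and 8 or 9 without any other single library.

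**Figure D2:**
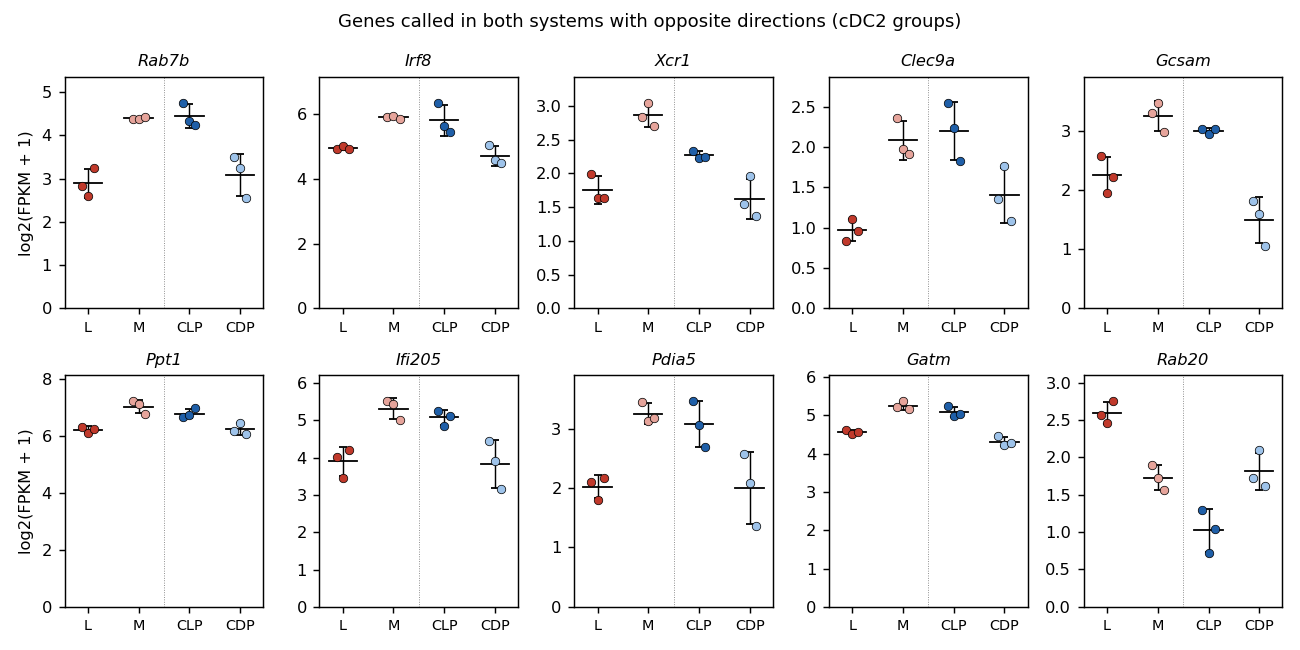
Level of 10 genes with both origin differences called in opposite directions, on the scale of log2(FPKM + 1) starting at 0, in L-cDC2 (L), M-cDC2 (M), CLP-cDC2 (CLP) and CDP-cDC2 (CDP); points are libraries, lines the means and bars the SD of 3 libraries. In 9 panels L lies under M while CLP lies over CDP, and Rab20 has the opposite order.

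Interferon-inducible genes of the Ifi200 family also changed sign, and the upstream stretch of 2 of them and of Cd8a is shown because each holds a motif bound by Irf proteins. The sequences are the 250 bases before the RefSeq gene start on GRCm38.p6, written 5′ to 3′ on the gene's strand, with motif matches in capitals. Ifi205 is at chr1:174031756-174032005 on the minus strand, Ifi211 at chr1:173913047-173913296 on the minus strand and Cd8a at chr6:71373177-71373426 on the plus strand.
Ifi205: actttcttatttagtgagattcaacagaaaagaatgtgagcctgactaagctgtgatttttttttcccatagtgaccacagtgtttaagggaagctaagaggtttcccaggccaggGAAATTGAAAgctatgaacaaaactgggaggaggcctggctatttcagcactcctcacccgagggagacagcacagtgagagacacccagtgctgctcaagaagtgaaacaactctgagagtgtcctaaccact
Ifi211: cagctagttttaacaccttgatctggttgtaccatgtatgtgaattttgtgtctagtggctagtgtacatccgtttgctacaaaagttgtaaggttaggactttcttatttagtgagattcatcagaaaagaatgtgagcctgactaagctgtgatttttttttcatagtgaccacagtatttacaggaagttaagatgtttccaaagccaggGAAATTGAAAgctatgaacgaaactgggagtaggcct
Cd8a: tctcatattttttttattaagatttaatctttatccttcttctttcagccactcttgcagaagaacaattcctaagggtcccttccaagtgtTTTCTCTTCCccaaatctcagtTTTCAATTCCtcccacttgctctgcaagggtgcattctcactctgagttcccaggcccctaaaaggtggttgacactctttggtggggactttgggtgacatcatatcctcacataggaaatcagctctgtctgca
In Ifi205 and Ifi211 the capitals mark the core of the interferon-stimulated response element, searched as GAAA, then NN, then GAAA. Both genes carry the same 10 bases, 134 bases before the start in Ifi205 and 37 in Ifi211. In Cd8a they mark 2 matches to the composite ETS-IRF element, searched as GGAA, then NN, then GAAA, on the opposite strand, 158 and 136 bases before the start. Both strands were searched, and no stretch can match both motifs on 1 strand. Of the 80 genes that changed sign, 60 had a promoter in the table. The interferon element was in 5 of them (8.33%; Ifi205, Ifi211, Spp1, Lamp1 and Mocs3) and in 3.46% of 27025 genes, and the ETS-IRF element was in 1 (1.67%) and in 2.68% of those genes. A match describes the letters only.

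Ifi205 stood at 15.3, 10.1 and 17.4 FPKM in L-cDC2, 44.8, 42.1 and 31.03 in M-cDC2, 37.5, 28.1 and 34.04 in CLP-cDC2 and 20.8, 13.9 and 7.96 in CDP-cDC2. The difference between systems was 2.67 ± 0.40, from -1.42 to 1.25 (limma adjusted p = 0.0037). Ifi211 stood at 11.6, 7.396 and 12.8 FPKM in L-cDC2, 29.2, 27.5 and 20.9 in M-cDC2, 21.7, 15.4 and 22.9 in CLP-cDC2 and 16.2, 10.7 and 8.58 in CDP-cDC2. M-cDC2 was again the highest group, CLP2 lay below CDP1, and the difference between systems was 1.96 ± 0.35 (limma adjusted p = 0.0092). Genes of this family are close copies, so reads may be split between them. With no filter on low values the call of Ifi211 was lost (limma adjusted p = 0.057). Of the type I interferon response list 0 of 21 tested members were higher (2.89% of all genes) and 2, Ddx58 and Oas2, lower (3.96% of all genes). Ddx58, the RNA sensor RIG-I, had a difference between systems of -1.27 ± 0.29 and Oas2, which makes the signal that activates RNase L, of -1.51 ± 0.35. Those calls were lost for Ddx58 without L2, M2, M3 or CLP2 (limma adjusted p up to 0.067) and for Oas2 without L1, L2, L3, M2, M3, CLP2, CLP3 or CDP3 (limma adjusted p up to 0.082).

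Pdia5 and Gatm were also higher in M-cDC2 and CLP-cDC2. Pdia5, a protein disulfide isomerase of the endoplasmic reticulum, stood at 3.27, 2.49 and 3.48 FPKM in L-cDC2, 9.96, 7.69 and 8.02 in M-cDC2, 10.01, 7.35 and 5.44 in CLP-cDC2 and 4.92, 3.24 and 1.57 in CDP-cDC2, a difference between systems of 2.29 ± 0.39 (limma adjusted p = 0.0065). Gatm, which catalyses the first step of creatine synthesis, stood at 23.8, 21.9 and 22.7 FPKM in L-cDC2, 36.3, 40.5 and 35.2 in M-cDC2, 36.9, 30.6 and 32.04 in CLP-cDC2 and 20.9, 17.7 and 18.4 in CDP-cDC2, a difference of 1.45 ± 0.16 (limma adjusted p = 0.00052). The libraries of Gatm lay close together, and its standard error was the smallest of the 10 plotted genes.

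Only 3 genes had both origin differences called with the opposite order, that is, higher in L-cDC2 than in M-cDC2 and lower in CLP-cDC2 than in CDP-cDC2. Rab20, a GTPase of endosomes and phagosomes, stood at 4.93, 4.48 and 5.73 FPKM in L-cDC2, 2.72, 2.29 and 1.96 in M-cDC2, 1.46, 0.653 and 1.07 in CLP-cDC2 and 2.31, 3.27 and 2.07 in CDP-cDC2. Its difference between systems was -1.65 ± 0.27, from 0.86 to -0.79 (limma adjusted p = 0.0054). Mgl2 (CD301b), a C-type lectin of cDC2, and Klrb1b, an inhibitory lectin receptor known from NK cells, lay under 5 FPKM on average and were picked out once their values were known. Mgl2 stood at 3.87, 2.88 and 6.94 FPKM in L-cDC2, 1.41, 1.21 and 1.116 in M-cDC2, 0.0492, 0.419 and 0.208 in CLP-cDC2 and 1.53, 1.07 and 1.98 in CDP-cDC2, a difference of -2.29 ± 0.34, and Klrb1b at 1.92, 2.43 and 2.16 FPKM in L-cDC2, 0.859, 0.716 and 0.513 in M-cDC2, 0.172, 0.372 and 0.201 in CLP-cDC2 and 1.09, 1.29 and 0.778 in CDP-cDC2, a difference of -1.61 ± 0.23. CLP-cDC2 was the lowest group for all 3 genes. The 12 genes called in both systems with opposite signs kept the call of the difference between systems in every fit that gave them a value, including those without 1 library. Membership of the class, which also needs both origin differences called, was less stable. It held from 4 genes without M1 to 13 without CDP1 when single libraries were left out, and 3 with no filter on low values.

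Among the other 68 genes that changed sign, 16 had a higher transfer difference. Cd24a, a surface glycoprotein of progenitors and cDC1, stood at 21.6, 18.6 and 31.1 FPKM in L-cDC2, 39.1, 45.4 and 34.01 in M-cDC2, 60.7, 46.3 and 36.8 in CLP-cDC2 and 21.3, 17.8 and 8.296 in CDP-cDC2. Its difference between systems was 2.34 ± 0.42 (limma adjusted p = 0.0094), and the transfer difference alone was called (1.61, against -0.73 in the reporter system). Galk1, which phosphorylates galactose, stood at 18.1, 21.6 and 23.3 FPKM in L-cDC2, 29.4, 30.9 and 32.4 in M-cDC2, 53.99, 57.8 and 39.2 in CLP-cDC2 and 30.04, 17.3 and 16.9 in CDP-cDC2, and Fahd1, a mitochondrial decarboxylase, at 1.91, 2.31 and 3.54 FPKM in L-cDC2, 4.14, 4.29 and 3.71 in M-cDC2, 6.57, 7.17 and 6.76 in CLP-cDC2 and 2.43, 3.79 and 1.73 in CDP-cDC2. Both had CLP-cDC2 as the highest group and kept the call in every fit that gave them a value, with differences of 1.77 ± 0.29 and 1.66 ± 0.30. Kcnn4, a calcium-activated potassium channel, had a difference of 1.68 ± 0.31. Clec12a, an inhibitory C-type lectin and the only member of the cDC2 identity list that was higher, had 1.53 ± 0.33. At the size of 0.5 that divides the classes, Clec12a lay just over it in the reporter system (-0.50) and Cd36 just under it (-0.49). The call was lost for Clec12a without L2, M2 or CLP1 (limma adjusted p up to 0.064). With no filter it was lost for Cd24a (limma adjusted p = 0.063) and Kcnn4 (limma adjusted p = 0.062).

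The remaining 52 had a higher reporter than transfer difference, and 41 of them were called in the transfer system. Dok2, an adaptor that dampens tyrosine kinase signalling, stood at 4.85, 5.36 and 5.28 FPKM in L-cDC2, 0.558, 0.385 and 0.366 in M-cDC2, 0.274, 0.566 and 0.0162 in CLP-cDC2 and 2.01, 0.559 and 0.819 in CDP-cDC2. It was the only one of the 52 called in the reporter system (2.103, limma adjusted p = 0.00018), and it was not called in the transfer system (-0.69, limma adjusted p = 0.0704). Ccl5, a chemokine for T cells, NK cells and monocytes, stood at 453, 439.8 and 484 FPKM in L-cDC2, 261, 272 and 334 in M-cDC2, 47.7, 111 and 64.3 in CLP-cDC2 and 205, 319 and 208 in CDP-cDC2, where CLP-cDC2 was the lowest group and L-cDC2 the highest, a difference between systems of -2.43 ± 0.36 (limma adjusted p = 0.0035).

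For others of the 52, a pair of libraries lay at the extremes. Jund, a subunit of AP-1, stood at 11.1, 28.5 and 24.7 FPKM in L-cDC2, 13.1, 13.3 and 9.51 in M-cDC2, 8.12, 5.17 and 9.56 in CLP-cDC2 and 21.1, 48.5 and 103 in CDP-cDC2, a difference of -3.23 ± 0.66. Lamp1, the lysosomal membrane protein, stood at 29.97, 40.8 and 42.6 FPKM in L-cDC2, 40.3, 30.6 and 13.4 in M-cDC2, 16.1, 10.5 and 17.2 in CLP-cDC2 and 56.3, 76.9 and 101 in CDP-cDC2, a difference of -2.86 ± 0.48. In both, CDP3 was the highest library and M3 the lowest of its group. The small GTPases Arf6 (-3.12) and Rac1 (-2.82), which act on membrane traffic and the actin cytoskeleton, and Cited2 (-2.73), a transcriptional co-regulator, had the same 2 libraries at those extremes. Without M3 and CDP3, 35 genes changed sign in place of 80, of which 31 were among the 80. The calls were lost for Jund without L2 (limma adjusted p up to 0.0501), Arf6 without L2, L3, M2 or CLP2 (limma adjusted p up to 0.0605) and Rac1 without L2, L3 or CLP2 (limma adjusted p up to 0.057), and with no filter for Lamp1 (limma adjusted p = 0.055) and Cited2 (limma adjusted p = 0.065).

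GC content was higher in the transcripts of this group. The median GC content of the transcripts was 54.4% for the 52 genes, against 49.7% for all protein-coding genes tested. Each library's deviation from the mean of all libraries was set against GC across genes. The correlations ran from -0.293 in CLP3 to 0.305 in M3. When trends with GC and transcript length were removed within each library, 64 genes changed sign, of which 49 were among the 80. These counts cover sign changes of either direction, and the part of GC in the 52 genes was not tested.

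Genes known from lymphocytes were among the largest differences on the reporter side. In 55 of the 64 genes the reporter difference was the higher, and for 54 genes L-cDC2 was the group that stood above the others. Gzma, a killing protease held in NK and T cell granules, stood at 99.04, 95.4 and 136 FPKM in L-cDC2, 0.617, 0.262 and 0.294 in M-cDC2, 0.322, 4.29 and 0.421 in CLP-cDC2 and 0.163, 2.04 and 0 in CDP-cDC2. Every L-cDC2 library was more than an order of magnitude above the libraries of all other groups, and the transfer groups overlapped. Its reporter difference was 6.31 ± 0.49 (limma adjusted p = 9.1e-06), its transfer difference 0.50 ± 0.49 (limma adjusted p = 0.54) and the difference between systems -5.81 ± 0.69 (limma adjusted p = 0.00075). For Gzma 3 reads are worth 0.0404 to 0.112 FPKM, and voom on recovered reads did not call it (limma adjusted p = 0.051).

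Cd79a, the Ig-alpha chain that signals for the B cell receptor, stood at 57.8, 51.8 and 50.9 FPKM in L-cDC2, 0.594, 0.139 and 0.297 in M-cDC2, 0.172, 3.51 and 0.606 in CLP-cDC2 and 0.329, 1.24 and 1.001 in CDP-cDC2, a difference between systems of -5.18 ± 0.54 (limma adjusted p = 0.00031). Gzmb, a second granule protease, stood at 9.78, 9.497 and 18.9 FPKM in L-cDC2, 0.154, 0.0141 and 0.0548 in M-cDC2, 0.0205, 0 and 0 in CLP-cDC2 and 0, 0.174 and 0 in CDP-cDC2, a difference of -3.68 ± 0.31 (limma adjusted p = 9.3e-05). The pattern was alike in both genes: every L-cDC2 library lay above 9 FPKM and every other library below 4 FPKM, with CLP2 the next highest for Cd79a and CDP2 for Gzmb. Mzb1, a chaperone of antibody secretion in plasma cells and marginal zone B cells, had -3.15 ± 0.52, and Klrg1, an inhibitory receptor of mature NK and effector T cells, had -2.34 ± 0.36.

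The Gimap family, GTPases of lymphocyte survival that lie in a cluster, was followed by name after values were seen. All 7 tested Gimap genes were higher in L-cDC2 than in M-cDC2 (1.02% of all genes), and for 6 the transfer difference was lower than the reporter difference (3.96% of all genes). That count was 6 whichever library was left out and was 4 with no filter and under voom. Gimap4 stood at 18.6, 14.3 and 16.4 FPKM in L-cDC2, 0.109, 0.0221 and 0.0214 in M-cDC2, 0.01603, 1.72 and 0.0256 in CLP-cDC2 and 0.0596, 0.611 and 0.587 in CDP-cDC2, a difference between systems of -4.02 ± 0.45 (limma adjusted p = 0.00052). Gimap3 (-2.68) and Gimap6 (-2.35) followed the same order. The fitted size of these near-0 genes depends on the pseudocount: for Gimap4 it ran from -9.95 to -2.05 over all fits. With a pseudocount of 0.1 the calls of Gimap3 (limma adjusted p = 0.058) and Klrg1 (limma adjusted p = 0.077) were lost, as they were under voom (limma adjusted p = 0.12 and 0.33), and with no filter those of Mzb1 (limma adjusted p = 0.053) and Gimap6 (limma adjusted p = 0.061).

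By list, 8 of 13 tested genes of NK cells and innate lymphoid cells, 4 of 11 of B cells (among them Cd72, Cd79a and Fcmr), 2 of 6 of T cells (Cd2 and Cd247) and 1 of 8 of plasma cells (Mzb1) had the lower transfer difference (against 3.96% of all genes), and 0 of any had the higher one. The 8 were Gzma, Gzmb, Nkg7, Ncr1, Prf1, Xcl1, Il2rb and Ccl5. In the reporter system 10 of 13 NK cell and ILC genes, 7 of 11 B cell genes and 3 of 6 T cell genes were higher in L-cDC2 (1.02% of all genes). In the transfer system 2 NK cell and ILC genes were higher and 2 lower, and 6 B cell genes were higher in CLP-cDC2 (8.47% of all genes). The summed level of the 15 B cell genes was 263 to 286 FPKM in L-cDC2, 116 to 122 in M-cDC2, 135 to 157 in CLP-cDC2 and 116 to 140 in CDP-cDC2. In the same order of groups, the 17 NK cell and ILC genes summed to 747 to 893, 365 to 401, 196 to 289 and 312 to 481 FPKM. Ccl5 alone averaged 459, 289, 74.3 and 244 FPKM of that sum, a large part of it in M-cDC2 and CDP-cDC2. The reporter difference of Ccl5 was not called (0.67, limma adjusted p = 0.41). The 15 T cell genes summed to 36.9 to 42.1, 9.32 to 11.0, 16.9 to 25.3 and 11.9 to 13.7 FPKM. Ncr1, the NK cell receptor NKp46, was at 0 in 3 libraries, and Cd3e, the T cell receptor subunit, at 0 in 5 and at most 0.150 FPKM in any. Other markers of these cells were not confined to L-cDC2. The NK cell marker Klrd1 averaged 85.5 FPKM in L-cDC2, 80.7 in M-cDC2, 156 in CLP-cDC2 and 117 in CDP-cDC2. The T cell marker Lck averaged 10.7 FPKM in L-cDC2, 0.633 in M-cDC2, 6.70 in CLP-cDC2 and 0.967 in CDP-cDC2. The part of B, NK and T cells among the sorted tdTomato+ cells was not tested. The NK cell and ILC count was 8 and the B cell count 4 without CDP3, and 7 and 3 without M3 and CDP3. Without L2 the B cell count was 2, and voom on recovered reads called 2 NK cell and ILC genes.

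On the other 9 genes of the reporter side, L-cDC2 stood below M-cDC2 while the transfer groups lay close. Cst3, the protease inhibitor cystatin C and among the most abundant transcripts of dendritic cells, stood at 1238, 1039 and 1345 FPKM in L-cDC2, 2210.3, 2195 and 2573 in M-cDC2, 1884, 1630.2 and 1557 in CLP-cDC2 and 1672, 1448 and 1182 in CDP-cDC2. The reporter groups did not overlap, whereas the CLP-cDC2 and CDP-cDC2 libraries did. Its reporter difference was -0.95 ± 0.14, its transfer difference 0.25 ± 0.14 and the difference between systems 1.197 ± 0.20 (limma adjusted p = 0.0071). Rab32, a GTPase of lysosome-related organelles, stood at 50.00, 37.9 and 52.2 FPKM in L-cDC2, 77.8, 86.6 and 72.97 in M-cDC2, 59.9, 66.8 and 67.5 in CLP-cDC2 and 58.4, 62.99 and 57.8 in CDP-cDC2, a difference of 0.87 ± 0.18. Aif1 (Iba1), a calcium-binding protein of myeloid cells, stood at 15.9, 12.7 and 16.2 FPKM in L-cDC2, 38.9, 36.7 and 45.8 in M-cDC2, 34.8, 32.4 and 23.8 in CLP-cDC2 and 34.6, 35.1 and 18.8 in CDP-cDC2, a difference of 1.45 ± 0.31. The chemokine receptor Ccr2, which monocytes need to leave the bone marrow, had a reporter difference of -1.33 ± 0.28 and a transfer difference of 0.19 ± 0.28. Calls were lost for Rab32 without M2 (limma adjusted p up to 0.059), Aif1 without L2, M3, CLP1 or CLP2 (limma adjusted p up to 0.062) and Ccr2 without L1, L2, L3, M1, M2, M3, CLP1, CLP3 or CDP3 (limma adjusted p up to 0.11), and with no filter for Cst3 (limma adjusted p = 0.051).

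Genes of the cDC2 identity list made up part of the transfer side, most of them with CLP-cDC2 as the lowest group. Of the cDC2 identity list, 11 of 24 tested members had a lower transfer than reporter difference (against 3.96% of all genes) and 1, Clec12a, a higher one. The 11 were Sirpa, Itgam, Itgax, Zbtb46, Cd4, Clec10a, Mgl2, Cd209a, Relb, Tbx21 and Csf1r, and CLP-cDC2 had the lowest mean in all but Itgam. Not all of them belong to the transfer side. Mgl2 and Itgax (0.56 in the reporter and -0.89 in the transfer system) changed sign, and Cd209a had the same sign in both systems. The median was 0.18 in the reporter system and -0.69 in the transfer system, and in the transfer system 11 members were lower in CLP-cDC2 (7.16% of all genes) against 1 higher. The 24 genes summed to 1012 to 1105 FPKM in L-cDC2, 939 to 1082 in M-cDC2, 682 to 761 in CLP-cDC2 and 931 to 1168 in CDP-cDC2. The count was 9 without CDP3 and 6 without M3 and CDP3. It was 5 without M2 or M3, 6 without L2, L3 or CLP2, 7 without M1, and 4 with no filter. Irf4, the transcription factor on which this branch depends more, did not have its lowest mean in CLP-cDC2. It averaged 5.89 FPKM in L-cDC2, 4.67 in M-cDC2, 5.69 in CLP-cDC2 and 6.16 in CDP-cDC2.

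Cd4, which many splenic cDC2 carry, stood at 24.8, 23.3 and 24.8 FPKM in L-cDC2, 21.7, 18.7 and 17.6 in M-cDC2, 3.91, 6.24 and 9.98 in CLP-cDC2 and 19.6, 36.4 and 27.8 in CDP-cDC2. CLP-cDC2 lay below all other libraries, and CDP-cDC2 overlapped both reporter groups. The transfer difference was -1.94 ± 0.26 (limma adjusted p = 0.00076), the reporter difference 0.32 ± 0.26 (limma adjusted p = 0.77) and the difference between systems -2.26 ± 0.37 (limma adjusted p = 0.0055). CLP-cDC2 were -1.79 from L-cDC2 (limma adjusted p = 0.00094), and CDP-cDC2 were 0.47 from M-cDC2 (limma adjusted p = 0.33).

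Sirpa, the inhibitory receptor used to tell cDC2 from cDC1, stood at 78.8, 119 and 83.7 FPKM in L-cDC2, 79.6, 71.1 and 57.9 in M-cDC2, 41.6, 38.1 and 43.3 in CLP-cDC2 and 79.4, 87.2 and 163 in CDP-cDC2, a difference between systems of -1.74 ± 0.34 (limma adjusted p = 0.014). Clec10a, a lectin for galactose-type sugars, stood at 4.36, 4.78 and 5.92 FPKM in L-cDC2, 4.39, 2.85 and 2.705 in M-cDC2, 1.43, 1.497 and 1.15 in CLP-cDC2 and 4.23, 3.46 and 4.22 in CDP-cDC2, a difference of -1.57 ± 0.25 (limma adjusted p = 0.0049). CLP-cDC2 was again the lowest group for both. Zbtb46, the transcription factor that separates conventional dendritic cells from other myeloid cells, had -1.11 ± 0.27 and Itgax (CD11c) had -1.45 ± 0.33, both picked out once their values were known. Their call was lost for Zbtb46 without L2, L3, M1, M2, M3, CLP1 or CLP2 (limma adjusted p up to 0.095) and Itgax without L2, M2, M3 or CLP2 (limma adjusted p up to 0.065), and with no filter for Sirpa (limma adjusted p = 0.077).

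The 2 largest differences on the transfer side were those of Mefv and Apol7c. Mefv encodes pyrin, a sensor protein that builds an inflammasome, and stood at 14.3, 9.82 and 9.699 FPKM in L-cDC2, 15.3, 15.1 and 15.4 in M-cDC2, 0.679, 2.06 and 1.58 in CLP-cDC2 and 21.96, 25.97 and 25.4 in CDP-cDC2. Its transfer difference was -3.42 ± 0.21, its reporter difference -0.43 ± 0.21 (limma adjusted p = 0.64) and the difference between systems -2.99 ± 0.29 (limma adjusted p = 0.00021). Apol7c, of the apolipoprotein L family, stood at 13.3, 11.5 and 17.6 FPKM in L-cDC2, 16.5, 11.9 and 13.3 in M-cDC2, 1.46, 0.857 and 0.751 in CLP-cDC2 and 18.1, 15.5 and 11.2 in CDP-cDC2. L-cDC2, M-cDC2 and CDP-cDC2 overlapped, and CLP-cDC2 lay below all of them. The difference between systems was -2.98 ± 0.30 (limma adjusted p = 0.00026).

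Dnase1l3, a secreted nuclease that digests chromatin of dead cells, stood at 52.9, 46.5 and 49.5 FPKM in L-cDC2, 60.4, 57.9 and 55.7 in M-cDC2, 13.5, 15.9 and 24.9 in CLP-cDC2 and 102, 92.4 and 129.9 in CDP-cDC2. CLP-cDC2 was the lowest and CDP-cDC2 the highest group, a difference between systems of -2.33 ± 0.27 (limma adjusted p = 0.00056). Hes1, a transcriptional target of Notch, had -2.30 ± 0.53, Mreg, which acts on lysosome traffic, had -2.41 ± 0.36, Tarm1, an activating receptor of myeloid cells, had -2.35 ± 0.45, and Adgre1, the macrophage marker F4/80, had -1.64 ± 0.29. Adgre1 stood at 53.3, 57.2 and 47.2 FPKM in L-cDC2, 53.5, 50.1 and 42.8 in M-cDC2, 13.8, 16.8 and 17.6 in CLP-cDC2 and 33.8, 47.9 and 68.3 in CDP-cDC2. Of the macrophage list 2 of 9 tested members, Adgre1 and Apoe, had the lower transfer difference (against 3.96% of all genes) and 0 the higher. Apoe belongs to the reporter side, with 111 FPKM on average in L-cDC2, 50.1 in M-cDC2, 43.1 in CLP-cDC2 and 51.3 in CDP-cDC2. Its reporter difference was 1.13 and its transfer difference -0.37 (limma adjusted p = 0.41 for the latter). Its call was lost in 9 of 12 fits without 1 library (limma adjusted p up to 0.086). The count of the macrophage list was 7 without CLP2, 2 without CLP1 or CDP1, 1 without any 1 of the other 9 libraries and 0 with no filter. Its 15 genes summed to 184 to 204 FPKM in L-cDC2, 134 to 145 in M-cDC2, 45.1 to 192 in CLP-cDC2 and 159 to 182 in CDP-cDC2, and C1qa, a subunit of complement C1q, ranged from 1.07 to 2.80 FPKM in L-cDC2, 1.54 to 2.54 in M-cDC2, 0.0849 to 6.32 in CLP-cDC2 and 5.25 to 9.68 in CDP-cDC2. Of the CLP-cDC2 libraries 1 held most of the C1qa of that group. The part of macrophages in these results was not tested. A call was lost for Hes1 without L2, L3, M2, M3, CLP1, CLP2 or CDP3 (limma adjusted p up to 0.072). With no filter the calls of Adgre1 (limma adjusted p = 0.056) and Tarm1 (limma adjusted p = 0.071) were lost.

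Maturation and NF-kB genes were also on this side. Of the migratory maturation list 8 of 17 tested members had the lower transfer difference (against 3.96% of all genes), and 0 the higher: Ccr7, Fscn1, Ccl5, Relb, Il4i1, Cacnb3, Socs2 and Cd40. In the reporter system 0 of the 17 were called, and in the transfer system 10 were lower in CLP-cDC2 (7.16% of all genes). Ccr7, the receptor that brings mature dendritic cells to T cell zones, stood at 24.4, 32.5 and 30.5 FPKM in L-cDC2, 28.5, 25.9 and 32.1 in M-cDC2, 12.5, 17.7 and 14.5 in CLP-cDC2 and 37.9, 36.5 and 35.4 in CDP-cDC2. CLP-cDC2 lay under all other libraries, a difference between systems of -1.26 ± 0.21 (limma adjusted p = 0.00599). Il4i1, a secreted amino acid oxidase of mature dendritic cells, had -1.15 ± 0.18 (limma adjusted p = 0.0051). Ccr7 and Il4i1 were picked out once their values were known. The count was 8 without CDP3 and 8 without M3 and CDP3, 6 under quantile or median-of-ratios scaling, and 5 without L1, L3, M1 or M2.

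Of the NF-kB list 5 of 14 tested members had the lower transfer difference (against 3.96% of all genes) and 0 the higher: Bcl3, Nfkb2, Nfkbie, Relb and Traf1. Bcl3, an atypical inhibitor protein that works in the nucleus, stood at 52.8, 61.97 and 59.6 FPKM in L-cDC2, 56.6, 55.1 and 46.3 in M-cDC2, 26.5, 15.9 and 35.95 in CLP-cDC2 and 86.4, 85.2 and 60.2 in CDP-cDC2, a difference between systems of -1.72 ± 0.33 (limma adjusted p = 0.013). Nfkb2, the precursor of the p52 subunit, had -1.12 ± 0.25 (limma adjusted p = 0.024). The count was 5 without CDP3, 3 without M3 and CDP3, 3 without L2 or M2, and 3 with no filter. A call was lost for Nfkb2 without L2, M2, M3 or CLP2 (limma adjusted p up to 0.069), and with no filter that of Bcl3 (limma adjusted p = 0.072).

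Cell division and biosynthesis genes were on the transfer side with the opposite sign and CLP-cDC2 as the highest group. In the cell cycle list, 38 members were tested and 8 had a higher transfer than reporter difference (against 2.89% of all genes) and 0 a lower one: Cdk1, Tyms, Aurkb, Cdc20, Cdca8, Cenpa, Mcm7 and Tk1. The median was 0.25 in the reporter and 0.66 in the transfer system, where 26 of the 38 were higher in CLP-cDC2 (8.47% of all genes). Cdk1, the kinase that starts mitosis, stood at 22.6, 16.8 and 22.8 FPKM in L-cDC2, 20.9, 20.3 and 18.8 in M-cDC2, 30.6, 35.6 and 37.8 in CLP-cDC2 and 17.9, 13.96 and 18.03 in CDP-cDC2, with 0.04 ± 0.15 in the reporter and 1.02 ± 0.15 in the transfer system and a difference of 0.98 ± 0.21 (limma adjusted p = 0.021). CLP-cDC2 lay above every other library. Tyms, which makes thymidylate for DNA, had 0.83 ± 0.17 (limma adjusted p = 0.017). The count was 9 without CDP3, 6 without M3 and CDP3, 3 after quantile normalization, 2 with no filter and 0 without L2. It was 1 without M2 or CLP2, 3 without L3, M3 or CLP1, 4 without M1 or CDP2, and 5 without L1 or CLP3. Calls were lost for Cdk1 without L2, M2 or CLP2 (limma adjusted p up to 0.057) and Tyms without L2 (limma adjusted p up to 0.0505).

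Histone genes, taken by name after values were seen, had 12 of 62 tested members higher (against 2.89% of all genes) and 0 lower, with a median of -0.02 in the reporter and 0.78 in the transfer system. H3c3, a replication-dependent histone H3 gene, stood at 3.97, 3.92 and 2.697 FPKM in L-cDC2, 3.66, 3.11 and 3.84 in M-cDC2, 9.43, 8.83 and 8.74 in CLP-cDC2 and 3.66, 2.94 and 2.02 in CDP-cDC2, a difference between systems of 1.40 ± 0.25 (limma adjusted p = 0.0098). The histone count was 6 without CDP3 and 7 without M3 and CDP3. It was also 5 without L2, L3 or CLP2, 6 without L1 or CLP1, 7 without M3 or CDP2, 26 without CDP1 and 3 with no filter, and 9 to 13 without the other 3 libraries. Many histone genes are near-identical copies, so single values are uncertain.

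Of the serine synthesis and one-carbon list 6 of 16 were higher (against 2.89% of all genes), among them Phgdh, Psat1, Shmt1, Shmt2 and Tyms, and 1, the stress sensor Sesn2, was lower (3.96% of all genes). Phgdh, the first enzyme of serine synthesis, stood at 44.8, 39.5 and 42.5 FPKM in L-cDC2, 28.8, 27.3 and 34.9 in M-cDC2, 77.5, 78.8 and 65.4 in CLP-cDC2 and 26.4, 14.3 and 12.4 in CDP-cDC2. CLP-cDC2 was the highest and CDP-cDC2 the lowest group, with a transfer difference of 2.07 ± 0.22 (limma adjusted p = 0.00017) and a reporter difference of 0.47 ± 0.22 (limma adjusted p = 0.602). The difference between systems was 1.60 ± 0.31 (limma adjusted p = 0.013). Psat1 (1.08 ± 0.21) and Shmt2 (1.06 ± 0.20), the next enzyme of that path and the mitochondrial enzyme that passes its carbon on, were likewise picked out with values known. The list's count was 4 without CDP3 and 5 without M3 and CDP3. It was also 3 without L2, 4 without L1, L3, M1, M2 or CDP2, and with no filter the call of Phgdh was lost (limma adjusted p = 0.069).

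Oxidative phosphorylation had 5 of 49 members higher (Atp5c1, Atp5h, Ndufa9, Sdhd and Uqcrfs1) and glycolysis 5 of 16 (Gapdh, Ldha, Pgam1, Pgk1 and Tpi1), against 2.89% of all genes, and Pfkfb3 of the glycolysis list was lower (3.96% of all genes). Without CDP3 the counts were 2 and 4, without M3 and CDP3 2 and 2, without L2 0 and 0, after quantile normalization 1 and 3, and without CDP1 18 and 5. Without single other libraries they ranged from 1 to 3 and from 0 to 4. Ndufa9, a subunit of complex I, moved by less than 0.5 in each system (-0.28 and 0.40), a difference between systems of 0.68 ± 0.14 (limma adjusted p = 0.017). The call was lost for Ndufa9 without L2 (limma adjusted p up to 0.053). Quantile normalization moved the median difference between systems of all protein-coding genes from -0.06 to 0.04.

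Among markers of plasmacytoid dendritic cells, Cox6a2 and Siglech had their highest mean in CLP-cDC2, and Ccr9 in M-cDC2 (0.680 FPKM, against 0.639 in CLP-cDC2). Cox6a2 averaged 4.29 FPKM in L-cDC2, 1.47 in M-cDC2, 27.4 in CLP-cDC2 and 2.16 in CDP-cDC2, with 56.1 in the highest CLP-cDC2 library. Siglech averaged 1.01 FPKM in M-cDC2, the lowest group, and 5.13 in CLP-cDC2, the highest. Summed over 16 markers, and in the order L-, M-, CLP-, CDP-cDC2, the level was 179 to 181, 203 to 209, 198 to 321 and 171 to 230 FPKM, and none of Siglech, Ccr9 and Cox6a2 was at 0 in any library. The CLP-cDC2 sums overlapped those of M-cDC2 and CDP-cDC2. Of the 13 tested markers 1 was called higher (2.89% of all genes) and 1, Tlr7, lower (3.96% of all genes), and the higher count was 0 or 1 without single libraries. Their part in the transfer side was not tested.

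**Figure D3:**
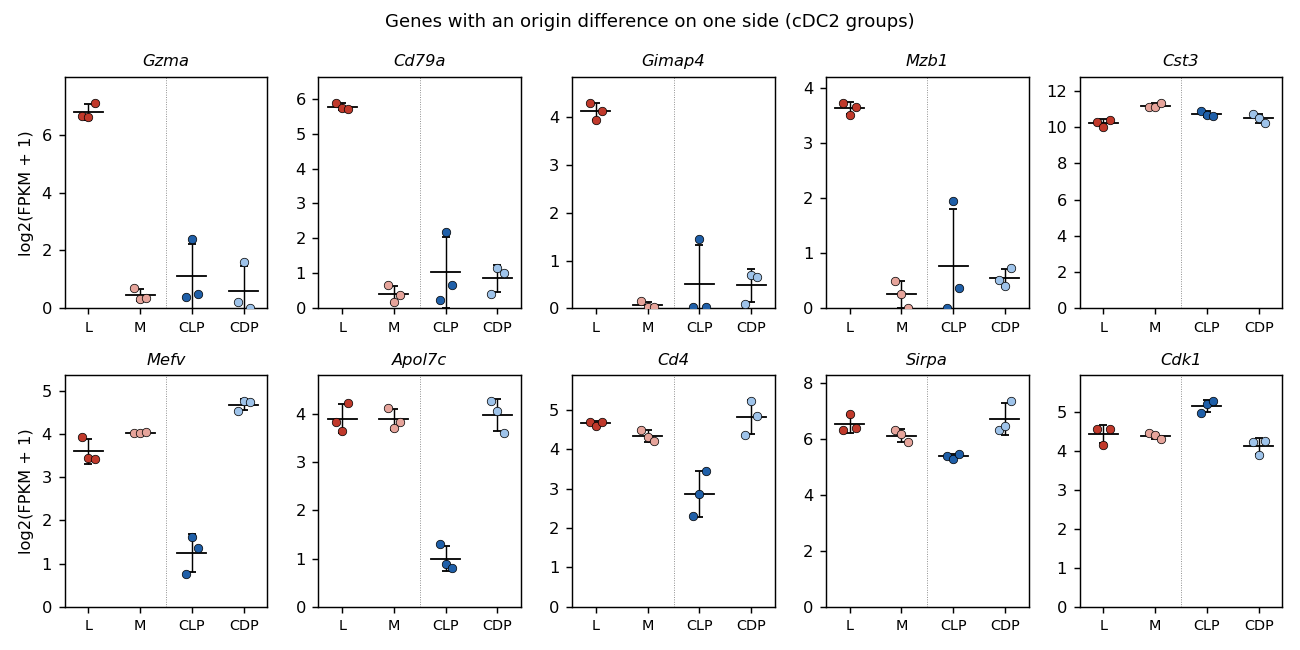
Level of 10 genes with an origin difference in 1 system, on the scale of log2(FPKM + 1) starting at 0, in L-cDC2 (L), M-cDC2 (M), CLP-cDC2 (CLP) and CDP-cDC2 (CDP); points are libraries, lines the means and bars the SD of 3 libraries. Gzma, Cd79a, Gimap4 and Mzb1 are highest in L and Cst3 is lower in L than in M; Mefv, Apol7c, Cd4 and Sirpa are lowest in CLP, and Cdk1 is highest in CLP.

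In 19 genes the origin difference had the same sign in both systems but not the same size. Lyz2, the lysozyme of myeloid cells, stood at 111, 99.4 and 108 FPKM in L-cDC2, 286, 263 and 274 in M-cDC2, 41.8, 104 and 54.6 in CLP-cDC2 and 539.7, 401 and 486 in CDP-cDC2, with a reporter difference of -1.36 ± 0.24, a transfer difference of -2.91 ± 0.24 and a difference between systems of -1.55 ± 0.34 (limma adjusted p = 0.023). Cd209a, a DC-SIGN homologue of cDC2 and monocyte-derived cells, stood at 70.4, 53.3 and 71.5 FPKM in L-cDC2, 174, 169 and 146 in M-cDC2, 10.1, 16.1 and 15.1 in CLP-cDC2 and 91.1, 162 and 75.2 in CDP-cDC2, with -1.32 and -2.85. L-cDC2 and CLP-cDC2 were below their counterparts in both genes. Il1b, the inflammatory cytokine, had -0.95 and -1.87, with CDP-cDC2 the highest group. The 17 genes of the monocyte and inflammatory cDC2 list summed to 466 to 551 FPKM in L-cDC2, 749 to 812 in M-cDC2, 536 to 651 in CLP-cDC2 and 1058 to 1197 in CDP-cDC2, and the part of monocytes was not tested. Lyz1 and Lyz2 are close copies, so their reads may be split. Calls were lost for Lyz2 without L2, L3 or M2 (limma adjusted p up to 0.062), Cd209a without L1, L3, M2, M3 or CLP1 (limma adjusted p up to 0.063) and Il1b without L3 or CLP2 (limma adjusted p up to 0.055).

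Nkg7 and Ncr1, of the same class, were further apart in the reporter system. Nkg7, a cytotoxic granule membrane protein, stood at 78.7, 72.3 and 106 FPKM in L-cDC2, 0.558, 0.0888 and 0.668 in M-cDC2, 2.996, 6.45 and 0.567 in CLP-cDC2 and 0, 3.55 and 0 in CDP-cDC2, with 5.92 ± 0.58 in the reporter and 1.12 ± 0.58 in the transfer system (limma adjusted p = 0.23 for the latter). Ncr1, singled out after its values were seen, had 3.28 and 0.54. Voom on recovered reads called neither (limma adjusted p = 0.27 and 0.077), and Nkg7 was not called with a pseudocount of 0.1 (limma adjusted p = 0.11).

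Ly6d, which marks lymphoid progenitors set on the B cell path, is given for contrast. It stood at 45.9, 33.2 and 41.2 FPKM in L-cDC2, 0.954, 0.0273 and 1.64 in M-cDC2, 68.7, 36.4 and 23.9 in CLP-cDC2 and 2.94, 3.45 and 0.494 in CDP-cDC2. Both lymphoid-origin groups lay above both myeloid-origin groups, the origin differences were 4.55 ± 0.45 and 3.76 ± 0.45, and the difference between systems of -0.79 ± 0.64 did not pass the test (limma adjusted p = 0.48).

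Other lists had few members called, beside 2.89% of all genes higher and 3.96% lower. Monocyte and inflammatory cDC2 genes had 1 of 13 higher and 3 lower, lysosome and cathepsin genes 2 and 2 of 23, and C-type lectins 2 and 4 of 14. In MHC class II 1 of 10 (Cd74), which carries class II molecules through the cell, in MHC class I 1 of 15 (H2-Q6) and in AP-1 and immediate early genes 1 of 17 (Jund) were lower. LPS sensing had 2 of 18 lower (Irak1 and Tlr7), cytokines and chemokines 2 of 17 (Ccl5 and Il1b) and lymphoid progenitor genes 1 of 9 (Gata3). Cholesterol synthesis had 2 of 21 higher (Fdps and Msmo1), endoplasmic reticulum folding 2 of 20 (Pdia3 and Pdia5) and cytosolic ribosomal proteins 2 of 66 (Rpl15 and Rps16). Neutrophil markers had 1 tested member, and erythroid and platelet genes 0 of 5 called.

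Several of these calls depended on single libraries. Calls were lost for Cd74 without L1, L2, L3, M1, M2, CLP1 or CLP2 (limma adjusted p up to 0.088), Irak1 without L1, L2, L3, M2, M3, CLP1, CLP2, CDP2 or CDP3 (limma adjusted p up to 0.11), Fdps without L2 (limma adjusted p up to 0.0501), Msmo1 without L1, L2, M1, M2 or CLP2 (limma adjusted p up to 0.073) and Pdia3 without L2, L3, M1, M2, CLP1 or CLP2 (limma adjusted p up to 0.074). The call of Gata3 was lost whichever library was left out. Without CDP1 the count was 9 for AP-1 and immediate early genes, 4 for LPS sensing, 4 for cytokines and chemokines, 5 for endoplasmic reticulum folding and 8 for ribosomal proteins, and without any other single library that of ribosomal proteins was 0 or 1. Without CLP3 it was 3 for LPS sensing, 3 for cholesterol synthesis and 4 for endoplasmic reticulum folding. The lysosome counts were 2 and 2 whichever library was left out, the lower count of C-type lectins was 2 to 5, and that of monocyte and inflammatory cDC2 genes was 1 without L2, L3 or M2.

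**Figure D4:**
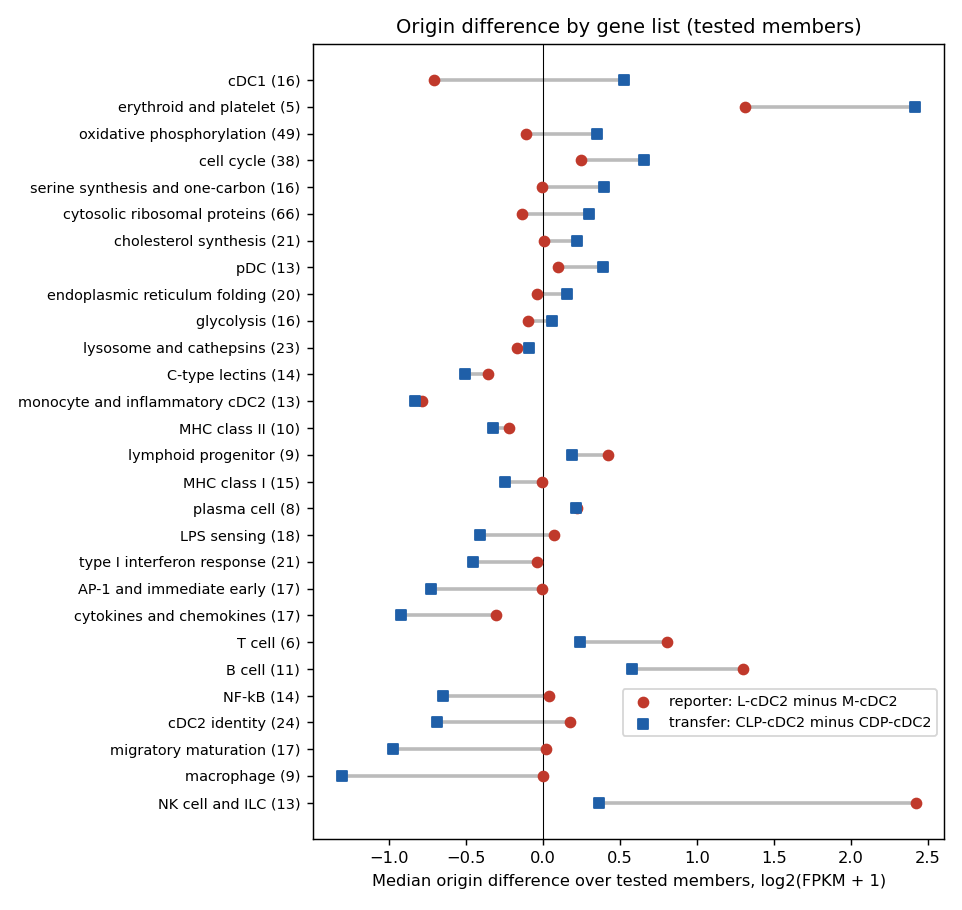
Median reporter difference (circles) and transfer difference (squares) over the tested members of each gene list with at least 5 of them, on the scale of log2(FPKM + 1), ordered by the median difference between systems, with the number of tested members in brackets. The cDC1 list crosses 0 (-0.70 to 0.53), the cDC2 identity list crosses it the other way (0.18 to -0.69), and the NK cell and ILC list lies at 2.42 in the reporter system and 0.36 in the transfer system.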

How the data were processed

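RNA-seq of sorted splenic cDC2 was deposited as 1 table of 12 libraries. Its FPKM values were made by the authors and are used as deposited. The submitters' processing notes list, without roles or order, STAR 2.7.9a, featureCounts 2.0.1, the trimmers Trimmomatic 0.39, Trim Galore 0.6.7 and cutadapt 3.7, and DESeq2 1.20.0, with the builds GRCm38 and GRCh38. Per the labels' protocols libraries were made with SMART-Seq HT and Nextera XT. For strand in counting, nothing is stated.

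Here, FPKM values were transformed to log2(FPKM + 1). Genes with at least 1 FPKM in at least 3 libraries were kept, 14538 of 55322. One mean per group was fitted with limma 3.58.1 in R 4.3.3 (eBayes with an intensity trend), and p-values were adjusted by Benjamini and Hochberg over all genes kept. The fit was tested on simulated data. Protein-coding genes are reported. Named genes averaged at least 5 FPKM in their highest group and had both origin differences called with opposite signs, were among the 10 largest of their class in a direction, or were up to 2 called members of a list, and 12 genes (Ly6d and H2-Ea among them) were named whatever their values. Others are said to be picked with values known, and some named by that rule are not reported here. The members and gene lists were chosen with earlier results of these data known. Alternatives were other pseudocounts, filters, scalings, weights and blocks, and fits without each library. Fits without M3 and CDP3, with GC and length trends removed, and voom on reads recovered from the FPKM were chosen after seeing the data. Libraries held 26543345 to 73732243 assigned reads as inferred from the FPKM, which sets the precision of low values.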

Additional observations from a re-analysis of the deposited data

Results flagged for a closer look

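The difference between systems is itself a test of whether the origin effect differs between 2 settings, so its results are listed here. It passed for 292 protein-coding genes with the transfer difference above the reporter difference and for 400 with it below, and 80 of these changed sign. Among the 12 called in both systems with opposite signs, the difference between systems on the log2(FPKM + 1) scale was 2.85 for Rab7b, 2.67 for Ifi205, 2.5 for Gcsam, 2.29 for Pdia5, 2.04 for Irf8, 1.91 for Clec9a, 1.75 for Xcr1, 1.45 for Gatm and 1.36 for Ppt1. It was -2.29 for Mgl2, -1.65 for Rab20 and -1.61 for Klrb1b. In all 12 genes the 3 libraries of 1 origin lay wholly above those of the other in both systems, with opposite order. These genes were selected for being called in both systems, and 22.2% of protein-coding genes had no overlap in the reporter and 34.4% in the transfer system.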

How the results depend on the processing

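The call counts of 292 higher, 400 lower and 80 sign changes depended on the processing as follows. No filter on low values gave 69, 122 and 22, array weights 795 higher and 823 lower, a fit without trend 176 higher, and adjustment over protein-coding genes alone 482 and 644. A pseudocount of 5 left 27 sign changes and voom on recovered reads gave 151. Removing GC and length trends gave 453 and 630, and leaving out M3 and CDP3 gave 153, 208 and 35. Without single libraries the higher calls ran from 73 to 454, the lower calls from 154 to 550 and the sign changes from 31 to 123, lowest without L2 in each and highest without CDP1, CDP1 and M1. The cause was not tested. Of 108 called named genes, 34 kept the call under every alternative with a value and 74 lost it under at least 1. Of 2891 values 0 turned direction, but the genes were selected for calls in the same libraries, which leaves little room for a turn. The call held for 57 whichever single library was left out. Same-numbered libraries did not deviate together in every pair (correlations of 0.128, -0.224 and -0.076 between L-cDC2 and M-cDC2, and -0.034, 0.282 and 0.085 between CLP-cDC2 and CDP-cDC2), so the numbers are not taken as a pairing. With the replicate number as a block within each system 147 genes were higher and 254 lower, and with a block across both systems 141 and 220. Values near 0 are limited by depth, since 3 reads set a floor that differs by library.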

Other observations

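Outside protein-coding genes 179 of the genes tested were called in the difference between systems, where 5.99% of all tested genes were called. Immunoglobulin genes made up a share of these: 38 of 63 tested variable segments, 8 of 9 constant genes and 7 of 12 joining segments, all with the lower transfer difference. T cell receptor genes had 5 of 8 joining segments and 2 of 3 constant genes called, also lower. Of 1274 long non-coding RNAs tested, 15 had a higher and 34 a lower transfer difference, and of 1743 processed pseudogenes 23 and 6. Pseudogenes share reads with their parent genes, so these counts are uncertain.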
